A study of Mus musculus with 8 samples.

Results

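Removal of exon 6 from a single allele of Tbxt was examined by comparing the 2 Tbxt delE6/+ libraries with the 2 wild-type libraries, which are 4 of the 8 RNA sequencing libraries of the series. All genes were considered, and the results are given with and without the genes of chromosome 3. The cells are mouse embryonic stem (ES) cells of the line MK6, from the C57BL/6J strain, collected at day 1 of differentiation in vitro. Both groups were taken out of medium with LIF and inhibitors (2i), kept in N2/B27 medium, and then given CHIR99021, an inhibitor of GSK3 that switches on the Wnt pathway, without feeder cells. Wild-type cells carry no edit. In Tbxt delE6/+ cells CRISPR-Cas9 with a pair of guides had cut out the exon from 1 allele, after which single clones were picked, and the other allele was left intact. The other 4 libraries, Tbxt delE6/delE6 and Tbxt Insert ASAY, entered the fit and are used only where stated. The methods give 2 biological replicates for each genotype and do not state whether the 2 Tbxt delE6/+ libraries came from separate clones. Adjusted p-values rest on a spread between replicates that was estimated over all 8 libraries, which may hold no spread between Tbxt delE6/+ clones. The deletion cannot be told apart from other differences between a picked clone and its parent line.

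Tbxt (Brachyury) is a T-box transcription factor that is switched on in the primitive streak, where cells of the epiblast leave an epithelium to form mesoderm and endoderm. It sustains the progenitors in the tailbud that lengthen the body axis, and mice with less Tbxt have short tails. ES cells that leave the naive state pass through a formative state before they take up neural or primitive streak fates, and Wnt, Nodal and FGF signals bias that choice.

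The deleted exon is the sixth of the gene and lies at chr17:8438616-8438789 on the plus strand of GRCm38. It is shown because its removal was the aim of the edit. Its length of 174 bases, or 58 codons, is a multiple of 3. For the mouse deletion the paper places a designed target site in the intron before the exon, and ES cells had the same sites. The designed deletion therefore also took in intron sequence, which is not printed here. The reference sequence of the GENCODE M21 transcript reads, 5′ to 3′ and wholly in lower case since all of it was removed:

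exon 6 of Tbxt: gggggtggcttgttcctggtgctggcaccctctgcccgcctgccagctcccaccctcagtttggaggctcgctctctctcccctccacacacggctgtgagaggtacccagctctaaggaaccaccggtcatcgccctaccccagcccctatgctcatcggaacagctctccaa

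Between 24618587 and 28445952 reads per library were counted on genes, antisense to read 1. Counts were scaled to counts per 1000000 reads (CPM) with TMM-adjusted library sizes, so that a CPM compares a gene between libraries and not 1 gene with another. A total of 17049 of 48440 listed genes passed the filter on low counts, and each was tested with edgeR's quasi-likelihood test and Benjamini-Hochberg adjustment over all of them. A gene was called, and is said to have risen or fallen, where the adjusted p was under 0.05 and the log2 fold change (Tbxt delE6/+ over wild-type) was past 0.5 in size. The lists of genes used here were chosen with earlier results of these data known, and each is described by its counts and median, without a test of the list.

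Total Tbxt RNA did not separate the groups. Tbxt was measured at 1.7 and 1.56 CPM in wild-type and 1.48 and 2.21 CPM in Tbxt delE6/+ libraries, and the wild-type values lay within the range of the Tbxt delE6/+ values (log2 fold change 0.17, standard error 0.245, edgeR adjusted p = 0.651). A count over the whole gene cannot show the loss of an exon from 1 allele, so it does not check the genotype.

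The cells carried the marker genes of ES cells in both groups. The summed level of the 10 ES cell markers was 1554 and 1505 CPM in wild-type and 1231 and 1186 CPM in Tbxt delE6/+ libraries. Markers of embryonic fibroblasts, which serve as feeder cells, summed to 162 and 169 CPM in wild-type and 195 and 196 CPM in Tbxt delE6/+ libraries, and 3 of the 10 (Postn, Lum and Twist2) were below the filter. Markers of primitive endoderm summed to 157 and 173 CPM against 190.2 and 218 CPM, a higher sum in both Tbxt delE6/+ libraries. Those of trophoblast summed to 35.2 and 36.8 CPM against 30.9 and 31.1 CPM. The neural markers summed to 135 and 135 CPM against 129 and 130.5 CPM. The mesoderm markers summed to 18.4 and 20.2 CPM against 13.4 and 15.5 CPM, and both sums were lower in both Tbxt delE6/+ libraries. A sum follows its most abundant members, such as Nes (on chromosome 3, averaging 80 CPM, log2 fold change -0.43) and Eomes (-0.95). Outside chromosome 3, 4 of 5 tested neural markers lay above 0 on the log2 scale, with a median of 1.31. So did 4 of 5 tested mesoderm markers, with a median of 0.21. The part of these cell types in the differences below was not tested. In bulk RNA, fewer cells of a type and less RNA per cell cannot be told apart.

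A total of 2299 genes were called, 13.5% of those tested, of which 1125 were higher (6.6%) and 1174 lower (6.89%) in Tbxt delE6/+ cells. Chromosome 3 held 306 of them. With its genes left out, 1993 calls remained among 16201 tested genes. In 1991 of the 1993 (99.9%) the groups did not overlap, so that for the named genes below a lack of overlap adds little to the call. Of the 1993, 883 genes (5.45% of the 16201) were higher and 1110 (6.85%) lower, and these 2 percentages are the background for every count given below for genes outside chromosome 3. Regardless of sign, the log2 fold change outside chromosome 3 had a median of 0.20 over all tested genes and 0.84 over called genes, beside a median standard error of 0.107. A change past 1 in size was seen for 320 called genes that rose and 387 that fell, and a change past 2 for 43 and 38.

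Chromosome 3 departed from the other autosomes and the X chromosome. Of its 848 tested genes, 242 (28.5%) were higher and 64 (7.55%) lower, with a median log2 fold change of 0.32. The other autosomes and the X chromosome had medians between -0.05 and 0.08, with 3.58% to 11.1% of their genes higher and 3.70% to 9.61% lower. The 20 tested genes of the mitochondrial chromosome had a median of -0.43, with 7 lower (35.0%) and 0 higher, and are described below. Over the chromosome 3 genes averaging 2 CPM or more, the median difference from the wild-type mean was 0.34 and 0.33 in the 2 Tbxt delE6/+ libraries, and it lay between -0.04 and 0.01 in the 6 other libraries. The shift was thus present in both Tbxt delE6/+ libraries and in none of the others.

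**Figure D1:**
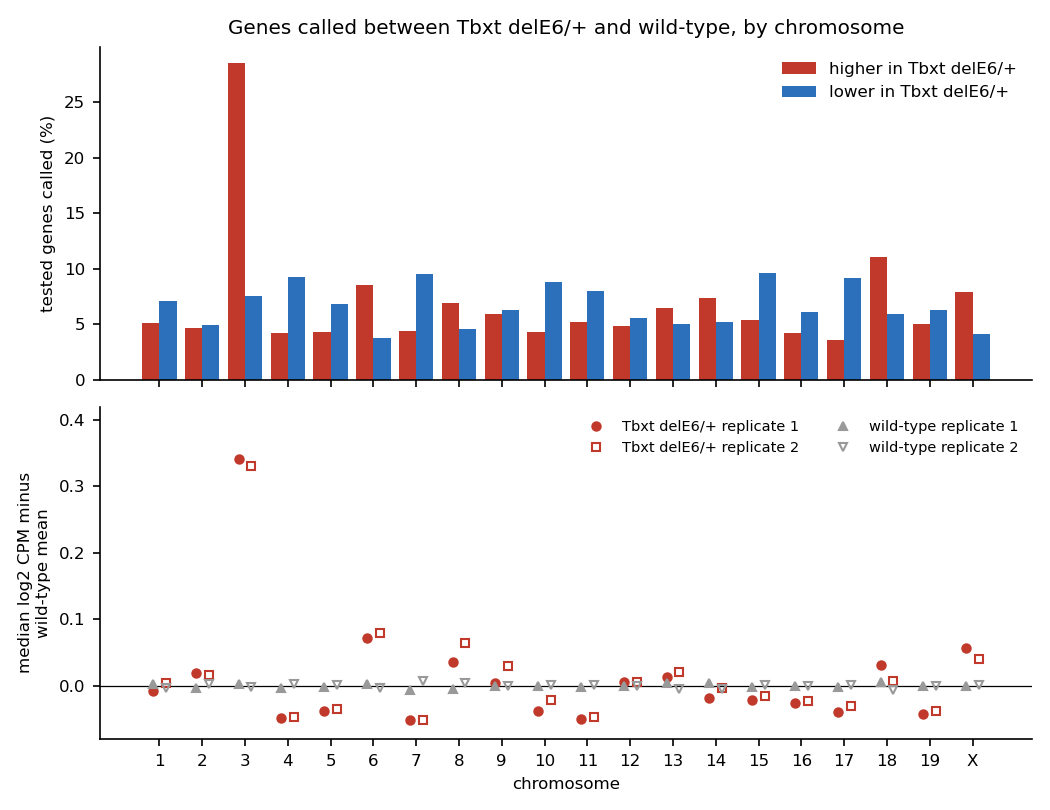
Share of tested genes called higher (red) and lower (blue) in Tbxt delE6/+ cells by chromosome (upper panel, %), and for each library the median over genes of log2 CPM minus the mean of the 2 wild-type libraries (lower panel, log2 scale, genes averaging 2 CPM or more). Chromosome 3 stands out in both panels, with 28.5% of its genes called higher and both Tbxt delE6/+ libraries at 0.33 or 0.34.

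The shift ran along most of the chromosome and turned at its far end. The boundaries used here are round positions that were chosen with earlier results known. Among genes averaging 2 CPM or more, the median log2 fold change was -0.01 over 83 genes that start in the first 40 Mb and 0.18 over 58 genes from 40 to 60 Mb. From 60 to 140 Mb it was 0.47 over 425 genes, a level 1.38 times that of wild-type, and 371 of the 425 lay above 0. From 140 Mb to the end it was -0.65 over 48 genes, or 0.637 times wild-type, and 47 of the 48 lay below 0. All 45 genes called in that last stretch were lower, and from 60 to 140 Mb 217 genes were called higher and 15 lower. The turn began shortly before that boundary, since a running median over 31 genes was below 0 for the last 60 genes, the first of which starts at 137.9 Mb. The medians of the 2 Tbxt delE6/+ libraries taken singly were 0.47 and 0.46 from 60 to 140 Mb and -0.67 and -0.63 beyond 140 Mb.

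**Figure D2:**
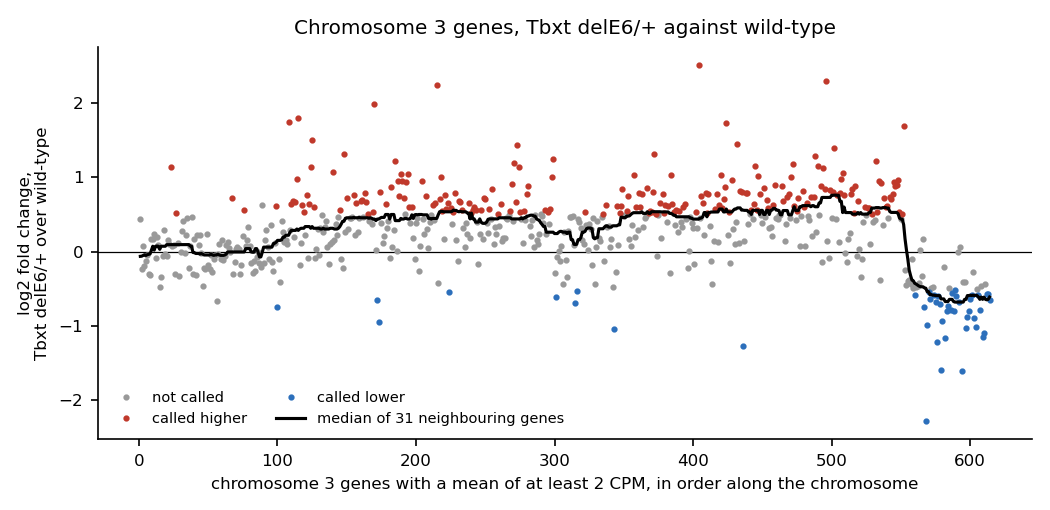
Log2 fold change (Tbxt delE6/+ over wild-type) of chromosome 3 genes averaging 2 CPM or more, in order along the chromosome, with genes called higher in red, called lower in blue and not called in grey. The black line, the median of 31 neighbouring genes, starts near 0, runs above 0 over most of the chromosome and lies below 0 over the last 60 of the 614 genes.

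Genes with a large change on chromosome 3 included some with roles in differentiation. Crabp2 (chr3:87948666-87953376), which carries retinoic acid to its nuclear receptors, was at 5.59 and 4.65 CPM in wild-type and 26.7 and 21.7 CPM in Tbxt delE6/+ libraries (log2 fold change 2.24, standard error 0.138, edgeR adjusted p = 2.01e-07). Ccn1 (chr3:145646976-145649981), a secreted matrix protein that is induced by Yap and by serum, was at 942 and 1002 CPM in wild-type and 315 and 328 CPM in Tbxt delE6/+ libraries (log2 fold change -1.6, standard error 0.174, edgeR adjusted p = 1.83e-05), and it lies beyond 140 Mb. Both changes exceeded the median of the stretch in which the gene lies. The other rises named by rule were Olfml3 (2.52 on the log2 scale), Abca4 (2.3) and Bche (1.99), and the other falls Gbp2 (-2.29), Gipc2 (-1.61) and Csf1 (-1.28). Sox2, a core pluripotency factor that is also used by neural progenitors, is on this chromosome and rose from 71.2 and 66.2 CPM to 117 and 109 CPM (log2 fold change 0.72, standard error 0.105, edgeR adjusted p = 0.000199). The Sox2 gene starts in the first 40 Mb, the stretch whose median was -0.01. Lef1, a DNA-binding partner of β-catenin, rose from 14.5 and 12 CPM to 32.2 and 30 CPM (log2 fold change 1.23, standard error 0.105, edgeR adjusted p = 2.57e-06). Members of the lists that lie on chromosome 3 are kept out of the counts that follow.

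Outside chromosome 3, the 10 largest rises among called genes averaging 2 CPM or more included transcription factors of the neural tube. Foxb1 (chr9:69757710-69760940), a forkhead factor of the early neural tube, was at 0.866 and 0.633 CPM in wild-type and 6.63 and 5.39 CPM in Tbxt delE6/+ libraries (log2 fold change 3.0, standard error 0.299, edgeR adjusted p = 8.93e-06). Fgfbp3 (chr19:36917550-36919615), a secreted protein that binds FGFs, was at 25.8 and 22.6 CPM in wild-type and 170.4 and 172 CPM in Tbxt delE6/+ libraries (log2 fold change 2.82, standard error 0.068, edgeR adjusted p = 7.05e-11). The Tbxt delE6/+ values of both genes lay above both wild-type values. Sox1 (chr8:12395295-12400126), a marker of the neural plate, was at 6.32 and 5.36 CPM in wild-type and 24.5 and 23.6 CPM in Tbxt delE6/+ libraries (log2 fold change 2.04, standard error 0.139, edgeR adjusted p = 4.12e-07). Hes1 (chr16:30064384-30067796), a transcriptional repressor downstream of Notch, was at 3.68 and 3.57 CPM in wild-type and 17.7 and 16.8 CPM in Tbxt delE6/+ libraries (log2 fold change 2.25, standard error 0.131, edgeR adjusted p = 1.36e-07). Ptn (chr6:36714929-36810220), the heparin-binding growth factor pleiotrophin, was at 1.52 and 1.79 CPM in wild-type and 10.9 and 10.1 CPM in Tbxt delE6/+ libraries (log2 fold change 2.67, standard error 0.167, edgeR adjusted p = 2.18e-07).

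The other 5 of the 10 largest rises were spread over several functions. Cyp1a1 (chr9:57687928-57703824), a cytochrome P450 induced through the aryl hydrocarbon receptor, was at 1.48 and 1.3 CPM in wild-type and 9.96 and 8.05 CPM in Tbxt delE6/+ libraries (log2 fold change 2.69, standard error 0.297, edgeR adjusted p = 2.04e-05). Sdk2 (chr11:113776374-114067046), an adhesion molecule of neurons, was at 9.38 and 6.81 CPM in wild-type and 37 and 33.6 CPM in Tbxt delE6/+ libraries (log2 fold change 2.12, standard error 0.143, edgeR adjusted p = 3.96e-07). Ildr2 (chr1:166254139-166316823), an immunoglobulin-like membrane protein, rose by 2.72 on the log2 scale, Tppp (chr13:74009407-74035753), which promotes the assembly of tubulin, by 2.35, and the zinc finger gene Zfp608 (chr18:54888048-54992555) by 2.1. For all 10 genes the groups did not overlap, which the rule for naming them required.

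The 10 largest falls chosen in the same way included components of Nodal signalling and of the cell surface. Tdgf1 (chr9:110939603-110946158), which encodes the Nodal co-receptor Cripto, was at 45.7 and 47.4 CPM in wild-type and 9.01 and 10.5 CPM in Tbxt delE6/+ libraries (log2 fold change -2.26, standard error 0.095, edgeR adjusted p = 1.27e-08). Lefty2 (chr1:180893108-180899103), a secreted Nodal antagonist that Nodal itself induces, was at 13.3 and 15.6 CPM in wild-type and 3.1 and 3.19 CPM in Tbxt delE6/+ libraries (log2 fold change -2.2, standard error 0.168, edgeR adjusted p = 9.33e-07). Lgals3 (chr14:47367751-47386160), the β-galactoside-binding lectin galectin-3, was at 16.7 and 20.8 CPM in wild-type and 2.76 and 2.74 CPM in Tbxt delE6/+ libraries (log2 fold change -2.77, standard error 0.175, edgeR adjusted p = 2.26e-07). All 3 genes were lower in both Tbxt delE6/+ libraries than in either wild-type library. Plaur (chr7:24462484-24475968), the receptor for urokinase, was at 65.5 and 70.1 CPM in wild-type and 12.9 and 14.5 CPM in Tbxt delE6/+ libraries (log2 fold change -2.31, standard error 0.103, edgeR adjusted p = 1.74e-08). Sfn (chr4:133600556-133602168), the epithelial 14-3-3 protein sigma, was at 40.1 and 42.9 CPM in wild-type and 8.44 and 9.11 CPM in Tbxt delE6/+ libraries (log2 fold change -2.24, standard error 0.156, edgeR adjusted p = 4.72e-07).

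Lower levels were also found for Mep1b (chr18:21061923-21100199), which encodes the β subunit of the protease meprin, with a log2 fold change of -2.53, for the hormone-like growth factor Fgf21 (chr7:45613886-45615490, -2.09), for the cytokine lymphotoxin β, Ltb (chr17:35194439-35196320, -1.97), and for the membrane protein gene Tmem140 (chr6:34863146-34874946, -1.95). Gm6083 (chr5:29538153-29538509), a pseudogene whose reads may belong to a near-identical copy, had 6.5 and 7.15 CPM in wild-type and 2.2 and 0.654 CPM in Tbxt delE6/+ libraries and the widest spread of the 20 genes (log2 fold change -2.23, standard error 0.437, edgeR adjusted p = 0.00171).

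**Figure D3:**
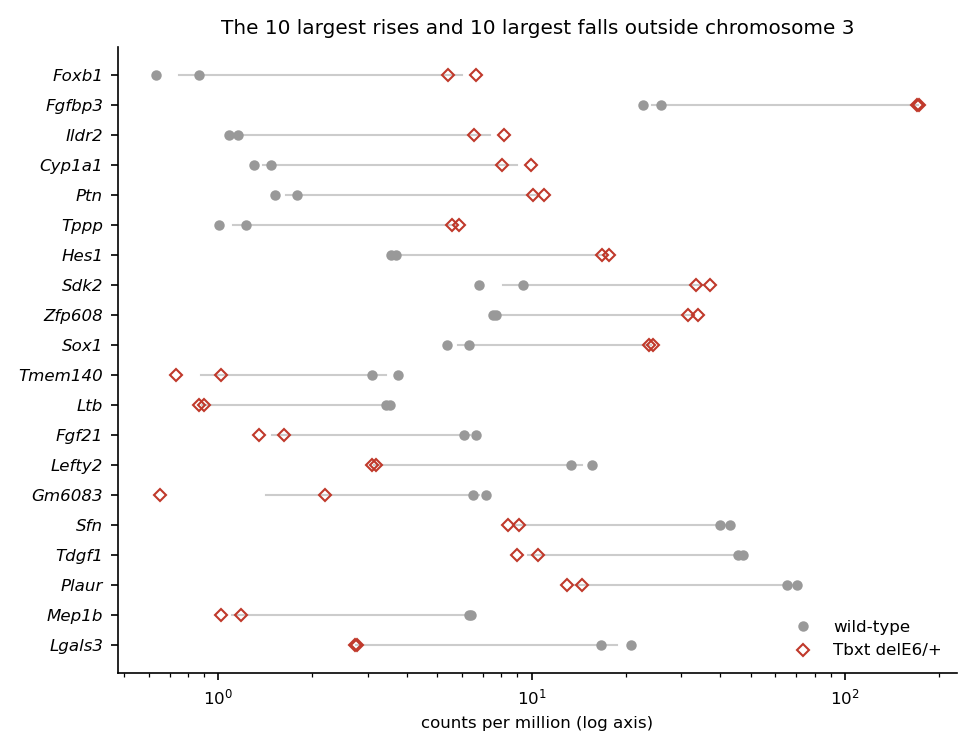
CPM (log axis) in each wild-type library (grey circles) and each Tbxt delE6/+ library (red diamonds) for the 10 largest rises and 10 largest falls outside chromosome 3, joined at the group means. The 2 libraries of a group lie close together for most genes, as for Fgfbp3 at 25.8 and 22.6 CPM and 170.4 and 172 CPM, and Gm6083 shows the widest gap between replicates.

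Genes of naive pluripotency fell. This list holds factors that keep ES cells in the state of the preimplantation epiblast, and 17 of its 24 tested members outside chromosome 3 were lower and 1 was higher, with a median log2 fold change of -0.64. Dppa5a, an RNA-binding protein of ES cells, was at 561 and 528 CPM in wild-type and 183 and 180.3 CPM in Tbxt delE6/+ libraries (log2 fold change -1.58, standard error 0.106, edgeR adjusted p = 3.82e-07). Fgf4, the autocrine FGF of ES cells, was at 20.2 and 17 CPM in wild-type and 5.79 and 5.84 CPM in Tbxt delE6/+ libraries (log2 fold change -1.68, standard error 0.173, edgeR adjusted p = 1.18e-05). Dppa3, a maternal factor that protects methylated DNA from oxidation, was at 38.1 and 38.9 CPM in wild-type and 14.7 and 15.8 CPM in Tbxt delE6/+ libraries (log2 fold change -1.34, standard error 0.138, edgeR adjusted p = 1.17e-05). In each of these genes both Tbxt delE6/+ libraries lay below both wild-type libraries. Among the core factors, Pou5f1 was at 295 and 282 CPM in wild-type and 176 and 184 CPM in Tbxt delE6/+ libraries (log2 fold change -0.68, standard error 0.0999, edgeR adjusted p = 0.000209) and Nanog at 38.7 and 32.9 CPM in wild-type and 21.7 and 19.5 CPM in Tbxt delE6/+ libraries (log2 fold change -0.80, standard error 0.143, edgeR adjusted p = 0.000905). Esrrb at -0.12, Zfp42 at -0.38, Klf2 at -0.22 and Stat3 at 0.07 on the log2 scale did not pass both thresholds. The member that rose was Gbx2, a homeobox gene that is also a Wnt and Stat3 target, from 2.85 and 2.9 CPM to 8.97 and 8.71 CPM (log2 fold change 1.62, standard error 0.138, edgeR adjusted p = 2.41e-06). Sox2 and Tet2, the members on chromosome 3, rose.

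The list of ES cell markers, which shares members with the naive list, was also mostly lower. Of 9 markers outside chromosome 3, 6 fell and 1 rose. Lin28a, an RNA-binding protein that blocks maturation of let-7 and stays high after cells leave the naive state, was the marker that rose, from 298 and 285 CPM to 537 and 488 CPM (log2 fold change 0.81, standard error 0.0511, edgeR adjusted p = 2.2e-07). The formative and primed list was split, with 5 of 26 members higher and 7 lower and a median of 0.00. The members that rose were Sox3 (1.02 on the log2 scale), Cdh2 (0.90), Sox11 (0.86), Sall2 (0.69) and Lin28b (0.57), of which Sox3, Cdh2 and Sox11 are also expressed in neural progenitors. Those that fell included the epithelial genes Cldn6 (-1.78), Epha2 (-1.44) and Krt18 (-1.15) as well as Nodal (-0.80) and Dnmt3l (-0.75). Otx2, a homeobox factor of the formative epiblast and forebrain, was at 0.0361 and 0.223 CPM in wild-type and 0.379 and 0.409 CPM in Tbxt delE6/+ libraries and was not called (log2 fold change 1.58, edgeR adjusted p = 0.0642). Fgf5, the classical epiblast marker, was at 0.433 and 0.112 CPM in wild-type and 0 and 0.123 CPM in Tbxt delE6/+ libraries (log2 fold change -2.13, edgeR adjusted p = 0.132) and was not called either.

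Genes that mark the 2-cell stage, which single ES cells express in short bursts, had the highest share of falls of the 51 lists, 12 of 14, with a median of -1.34 and no rise (0 at an unadjusted p under 0.05 by edgeR and 0 by DESeq2). Zscan4d was at 3.86 and 4.39 CPM in wild-type and 2.27 and 1.51 CPM in Tbxt delE6/+ libraries (log2 fold change -1.11, standard error 0.201, edgeR adjusted p = 0.000973) and Usp17la, a deubiquitinase gene, at 2.67 and 2.98 CPM in wild-type and 0.947 and 0.695 CPM in Tbxt delE6/+ libraries (log2 fold change -1.77, standard error 0.232, edgeR adjusted p = 8.36e-05). The Zscan4, Usp17l and Tcstv genes form families of near-identical copies, so reads could be split between members and the 12 calls are not separate measurements. Without Tbxt delE6/+ replicate 1 the list had 7 calls.

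Neural progenitor genes were more often higher than lower. In this list 9 of 17 tested members outside chromosome 3 were higher and 1 lower, with a median of 0.75. Beside Foxb1 and Sox1, Pax6, a paired-box factor of the neural tube and eye, was at 3.0 and 2.12 CPM in wild-type and 6.74 and 5.93 CPM in Tbxt delE6/+ libraries (log2 fold change 1.31, standard error 0.207, edgeR adjusted p = 0.00037). Zic1, a zinc finger factor of the dorsal neural plate, was at 1.95 and 1.27 CPM in wild-type and 4.73 and 5.76 CPM in Tbxt delE6/+ libraries (log2 fold change 1.7, standard error 0.214, edgeR adjusted p = 6.01e-05). Ncam1, the neural cell adhesion molecule, was at 13.5 and 11.5 CPM in wild-type and 44 and 43 CPM in Tbxt delE6/+ libraries (log2 fold change 1.8, standard error 0.152, edgeR adjusted p = 2.33e-06). The Tbxt delE6/+ levels of these 3 genes lay above both wild-type levels. Sox21 (1.11 on the log2 scale), Irx3 (0.87), Sox11 (0.86) and Pax3 (0.75) also rose. Tubb3, the β-tubulin of postmitotic neurons, fell from 23 and 22.8 CPM to 14.3 and 16 CPM (log2 fold change -0.60, standard error 0.0875, edgeR adjusted p = 0.000208), and the proneural factor Neurog3 (-0.26) did not pass. Of the 26 members of the list, Hes5, Hes3, Neurog1, Neurog2, Rax, Pax7, Olig3 and Dcx were below the filter. Since a low gene can pass the filter through 1 genotype in which it is high, the count can lean towards rises.

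Components of retinoic acid signalling, which patterns the neural tube, followed a narrower pattern. Of 18 tested members outside chromosome 3, 3 rose and 1 fell, or 2 without Tbxt delE6/+ replicate 1. Stra6, the receptor for retinol-binding protein, was at 11.7 and 10.2 CPM in wild-type and 35.9 and 39.3 CPM in Tbxt delE6/+ libraries (log2 fold change 1.78, standard error 0.0938, edgeR adjusted p = 5.82e-08). Crabp1, a cytoplasmic carrier of retinoic acid, was at 13.6 and 14.4 CPM in wild-type and 54.2 and 42.1 CPM in Tbxt delE6/+ libraries (log2 fold change 1.78, standard error 0.128, edgeR adjusted p = 5.83e-07). Rarb, a retinoic acid receptor and direct target, was at 1.7 and 1.6 CPM in wild-type and 6.25 and 5.11 CPM in Tbxt delE6/+ libraries (log2 fold change 1.78, standard error 0.18, edgeR adjusted p = 9.82e-06). For each of these 3 genes both Tbxt delE6/+ libraries exceeded both wild-type libraries. Cyp26a1, which breaks down retinoic acid and responds strongly to it, had a log2 fold change of -0.10 and Aldh1a2, which makes it, -0.43, neither of them called.

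Primitive streak genes moved in both directions, 6 of 19 higher and 4 lower with a median of 0.38. Cdx2, a homeobox factor of the posterior body and trophoblast, was at 0.108 and 0.335 CPM in wild-type and 2.04 and 1.68 CPM in Tbxt delE6/+ libraries (log2 fold change 3.06, standard error 0.437, edgeR adjusted p = 0.00017), from a wild-type level of a few reads. Wnt8a, a ligand of the streak, was at 10.8 and 9.45 CPM in wild-type and 23.5 and 26.7 CPM in Tbxt delE6/+ libraries (log2 fold change 1.31, standard error 0.137, edgeR adjusted p = 1.34e-05). The other rises were Fgf8 (0.90 on the log2 scale), Sp5 (0.98), Sp8 (0.77) and Foxa2 (1.47). Foxa2 rested on few reads, at 0.361 and 0.186 CPM in wild-type and 0.606 and 0.94 CPM in Tbxt delE6/+ libraries. DESeq2 gave Foxa2 no adjusted p. Eomes, the T-box factor of the anterior streak, was at 13.2 and 14.8 CPM in wild-type and 6.36 and 8.13 CPM in Tbxt delE6/+ libraries (log2 fold change -0.95, standard error 0.132, edgeR adjusted p = 0.000136). Nodal (-0.80), Mesp2 (-0.73) and Wnt3 (-0.62) also fell, and Mixl1 (0.21) and Tbx6 (0.40), a target of Wnt and Tbxt, were not called. The count of 6 and 4 became 2 and 2 without wild-type replicate 2, 2 and 2 without Tbxt delE6/+ replicate 2, 5 and 2 without Tbxt delE6/+ replicate 1, and 4 and 2 by DESeq2.

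Targets and feedback regulators of the canonical Wnt pathway, which CHIR99021 activates in both groups, were more often higher. In this list 7 of 20 rose and 1 fell, with a median of 0.32. Nkd1, an inhibitor that Wnt signals induce, was at 12.3 and 11.8 CPM in wild-type and 30.2 and 25.5 CPM in Tbxt delE6/+ libraries (log2 fold change 1.21, standard error 0.0965, edgeR adjusted p = 1.42e-06). Sfrp1, a secreted Wnt-binding protein, was at 31.2 and 26.6 CPM in wild-type and 57.9 and 54.1 CPM in Tbxt delE6/+ libraries (log2 fold change 0.95, standard error 0.135, edgeR adjusted p = 0.000158). Lrp4 (0.79 on the log2 scale), Notum (0.86), Sp5 (0.98), Lgr5 (1.75) and Axin2 (0.54), the most widely used readout of the pathway, also rose. Myc, which many other signals control, fell from 7.4 and 8.82 CPM to 3.41 and 3.07 CPM (log2 fold change -1.32, standard error 0.162, edgeR adjusted p = 4.87e-05), and Rnf43 (0.30), Znrf3 (-0.13) and Tcf7 (-0.24) were not called.

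Of 16 Nodal pathway genes 6 fell and none rose (edgeR at an unadjusted p under 0.05 gave 2 higher, DESeq2 0). Besides Tdgf1 and Lefty2 these were Lefty1 (-1.25 on the log2 scale), the inhibitory Smad7 (-0.99), the ligand Nodal, and Pcsk6, a convertase that cuts the Nodal precursor. Nodal was at 18.1 and 20.5 CPM in wild-type and 11.4 and 10.8 CPM in Tbxt delE6/+ libraries (log2 fold change -0.80, standard error 0.10, edgeR adjusted p = 6.11e-05). The ligand, its co-receptor, its convertase and its antagonists thus all had lower counts, whereas the receptors Acvr1b (-0.06) and Acvr2b (-0.02) and the transducers Smad2 (-0.11), Smad4 (0.02) and Foxh1 (0.00) were not called.

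The FGF-ERK list was divided, with 4 of 30 higher and 8 lower. Fgfr2, a receptor, was at 6.82 and 6.25 CPM in wild-type and 17.7 and 17.7 CPM in Tbxt delE6/+ libraries (log2 fold change 1.44, standard error 0.105, edgeR adjusted p = 6.3e-07), and the phosphatase gene Dusp4 was at 15.8 and 13.7 CPM in wild-type and 41.6 and 39.2 CPM in Tbxt delE6/+ libraries (log2 fold change 1.46, standard error 0.109, edgeR adjusted p = 8.26e-07). In the opposite direction, the related phosphatase gene Dusp5 was at 52.4 and 51.1 CPM in wild-type and 25.9 and 24.5 CPM in Tbxt delE6/+ libraries (log2 fold change -1.04, standard error 0.0759, edgeR adjusted p = 6.56e-07). Fosl1 (-1.65 on the log2 scale), Ier3 (-1.38), Phlda1 (-1.18) and Etv4 (-0.61) fell as well, and the feedback genes Dusp6 (-0.03), Spry2 (-0.22) and Spry4 (0.02) were not called.

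Immediate early genes, which signals such as serum and stress induce within minutes, were lower, 13 of 22 with no rise (edgeR at an unadjusted p under 0.05 gave 2 higher, DESeq2 0, and leaving out wild-type replicate 1 1) and a median of -0.59. Dusp1, a phosphatase of stress kinases, was at 116 and 124 CPM in wild-type and 47.2 and 50.1 CPM in Tbxt delE6/+ libraries (log2 fold change -1.3, standard error 0.0721, edgeR adjusted p = 9.37e-08). Junb, an AP-1 subunit, was at 38.3 and 32.1 CPM in wild-type and 13.7 and 13 CPM in Tbxt delE6/+ libraries (log2 fold change -1.4, standard error 0.117, edgeR adjusted p = 2.12e-06). Zfp36, which destabilizes mRNAs, was at 29.8 and 32.6 CPM in wild-type and 12.9 and 11.6 CPM in Tbxt delE6/+ libraries (log2 fold change -1.34, standard error 0.119, edgeR adjusted p = 3.37e-06). The groups did not overlap for any of the 3. Members with the fastest kinetics, Fos (-0.13 on the log2 scale), Egr1 (-0.19) and Ier2 (-0.18), were not called, and Jun had 0.21. Genes of the LIF and Stat3 pathway, several of them shared with this list or the naive list, were lower in 8 of 18 cases and higher in 1. Bcl3, a coactivator of NF-κB, was at 10 and 9.3 CPM in wild-type and 3.18 and 3.11 CPM in Tbxt delE6/+ libraries (log2 fold change -1.62, standard error 0.128, edgeR adjusted p = 1.33e-06), and Lif itself was at 22.3 and 23.2 CPM in wild-type and 13.9 and 14.5 CPM in Tbxt delE6/+ libraries (log2 fold change -0.68, standard error 0.0858, edgeR adjusted p = 6.01e-05). Socs3, the direct feedback target of Stat3, had a log2 fold change of 0.00, and the receptor Lifr 0.38, neither called.

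Notch and BMP components held both rises and falls. The shares called were 14.7% and 23.8% of tested members, beside 12.3% of all genes tested outside chromosome 3. In the Notch list 3 of 34 rose and 2 fell. Hes1 had the largest change in it, Maml2, a coactivator, rose from 0.722 and 0.856 CPM to 2.5 and 2.7 CPM (log2 fold change 1.71, standard error 0.256, edgeR adjusted p = 0.000239), and Rbpj, the DNA-binding subunit, fell from 291 and 271 CPM to 170.3 and 166 CPM (log2 fold change -0.74, standard error 0.107, edgeR adjusted p = 0.000184). The Notch targets Nrarp (-0.36 on the log2 scale) and Hey2 (-0.05) and the receptor Notch1 (-0.22) were not called. In the BMP list 2 of 21 rose and 3 fell, with Id2, an inhibitor of basic helix-loop-helix factors, at 0.87 and Smad7 at -0.99 on the log2 scale. Without Tbxt delE6/+ replicate 1 the BMP list had 2 rises and 1 fall, and without Tbxt delE6/+ replicate 2 the Notch list had 2 and 1. Without wild-type replicate 2 the counts were 1 and 3 for BMP and 3 and 1 for Notch.

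Genes for adhesion and extracellular matrix are given by family. Of 69 protocadherins, adhesion molecules that diversify the surfaces of neurons, only 28 passed the filter on low counts. A low gene can pass that filter through 1 genotype in which it is high. Of the 27 tested members outside chromosome 3, 15 rose and 0 fell (edgeR at an unadjusted p under 0.05 gave 1 lower, DESeq2 0), with a median of 0.81. Pcdhgc3 was at 24.3 and 25.7 CPM in wild-type and 49.2 and 48.2 CPM in Tbxt delE6/+ libraries (log2 fold change 0.96, standard error 0.089, edgeR adjusted p = 4.78e-06), and Pcdhga7 at 0.866 and 1.38 CPM in wild-type and 3.52 and 3.35 CPM in Tbxt delE6/+ libraries (log2 fold change 1.62, standard error 0.236, edgeR adjusted p = 0.0002). Genes of the Pcdhg cluster share their last exons, so that reads on those exons could not be assigned to 1 gene, and most members were low. The 15 rises became 7 by DESeq2, 8 without wild-type replicate 2 and 9 without Tbxt delE6/+ replicate 1. Pcdh7, which is outside the clusters, was at 0.289 and 0.298 CPM in wild-type and 1.06 and 1.43 CPM in Tbxt delE6/+ libraries (log2 fold change 2.06, standard error 0.346, edgeR adjusted p = 0.000564).

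Ephrins and their receptors, which repel or attract migrating cells, rose in 5 of 17 and fell in 1. Efnb1, a membrane-bound ligand, was at 25.3 and 22.8 CPM in wild-type and 53.4 and 53.8 CPM in Tbxt delE6/+ libraries (log2 fold change 1.15, standard error 0.0707, edgeR adjusted p = 2.01e-07), and Epha4, a receptor, was at 2.27 and 2.31 CPM in wild-type and 7.84 and 7.64 CPM in Tbxt delE6/+ libraries (log2 fold change 1.75, standard error 0.186, edgeR adjusted p = 1.48e-05). Epha2, the receptor of epithelial and ES cells, fell from 109 and 114 CPM to 39.1 and 43.5 CPM (log2 fold change -1.44, standard error 0.0702, edgeR adjusted p = 3.67e-08). Among semaphorins, plexins and neuropilins, 5 of 26 rose, led by Sema5b (0.90 on the log2 scale) and Plxna2 (0.92), and Sema3c fell (-1.01), with 4 and 2 without either replicate 2. The classical cadherins, 3 higher and 1 lower of 13 (1 and 1 without Tbxt delE6/+ replicate 1, 2 and 2 without Tbxt delE6/+ replicate 2 and 1 and 2 without wild-type replicate 1), held an opposite pair. Cdh1, the E-cadherin of epithelia, was at 768 and 818 CPM in wild-type and 469 and 529 CPM in Tbxt delE6/+ libraries (log2 fold change -0.67, standard error 0.0579, edgeR adjusted p = 2.8e-06), and Cdh2, the N-cadherin of neural and mesodermal cells, was at 23.4 and 20.9 CPM in wild-type and 41.1 and 41.6 CPM in Tbxt delE6/+ libraries (log2 fold change 0.90, standard error 0.085, edgeR adjusted p = 5.67e-06).

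Laminins and integrins fell in 11 of 31 members and rose in 1, with a median of -0.32. Itgb4, the integrin of hemidesmosomes, was at 38.5 and 39 CPM in wild-type and 18.9 and 19.3 CPM in Tbxt delE6/+ libraries (log2 fold change -1.02, standard error 0.0692, edgeR adjusted p = 3.96e-07). Itga5, a fibronectin receptor, was at 198 and 213 CPM in wild-type and 116 and 125 CPM in Tbxt delE6/+ libraries (log2 fold change -0.77, standard error 0.0534, edgeR adjusted p = 4.52e-07). Lamb2 (-0.73 on the log2 scale), Lamb3 (-1.02) and Itga3 (-0.62) also fell. The member that rose was Lama1, a laminin chain of early basement membranes and a primitive endoderm marker, from 18 and 20.7 CPM to 30.6 and 34.9 CPM (log2 fold change 0.76, standard error 0.115, edgeR adjusted p = 0.000253). Collagens were mixed, 4 higher and 7 lower of 30, with the basement membrane chains Col4a5 (1.17) and Col4a6 (1.15) among the rises and Col5a3 (-1.31) and Col2a1 (-0.85) among the falls.

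Plasminogen system genes, galectins and keratins had more falls than rises. Of 9 plasminogen system genes 4 fell and 1 rose (3 and 2 without Tbxt delE6/+ replicate 1). Plat, the tissue-type activator, was at 8.3 and 8.3 CPM in wild-type and 17.8 and 18.2 CPM in Tbxt delE6/+ libraries (log2 fold change 1.12, standard error 0.104, edgeR adjusted p = 5.17e-06). Thus Plaur fell while Plat rose. Of 8 galectins 4 fell, and besides Lgals3 they included Lgals1 (log2 fold change -1.12, standard error 0.0642, edgeR adjusted p = 1.14e-07). In the list of keratins, vimentin and lamins 3 of 10 fell and 7 were not called. Those that fell were keratins of simple epithelia, Krt8 at 179 and 189 CPM in wild-type and 64 and 67.4 CPM in Tbxt delE6/+ libraries (log2 fold change -1.49, standard error 0.153, edgeR adjusted p = 1.17e-05), Krt18 by 1.15 and Krt19 by 1.38 on the log2 scale. Targets of Yap, the Hippo pathway effector, fell in 4 of 18 with no rise (edgeR at an unadjusted p under 0.05 gave 2 higher, DESeq2 0), among them Ccn2 at 163 and 154 CPM in wild-type and 80.5 and 76.8 CPM in Tbxt delE6/+ libraries (log2 fold change -1.01, standard error 0.219, edgeR adjusted p = 0.00331).

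**Figure D4:**
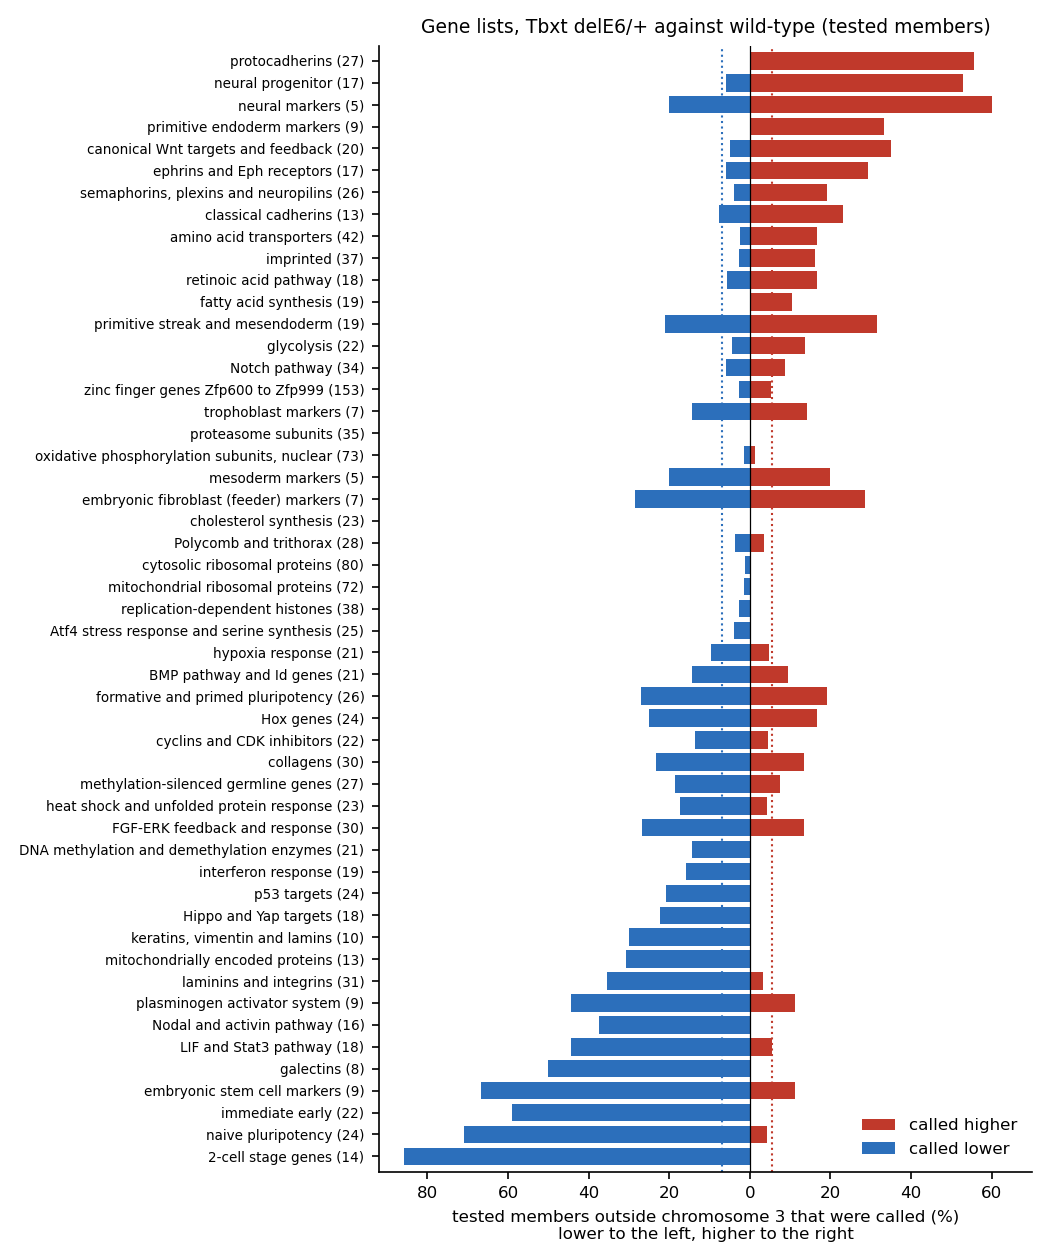
Share of the tested members outside chromosome 3 (%) that were called higher (red, to the right) or lower (blue, to the left) in Tbxt delE6/+ cells, for each gene list with at least 5 tested members, whose number is in brackets. Dotted lines mark the shares of all tested genes outside chromosome 3, 5.45% higher and 6.85% lower, and the 2-cell stage, naive pluripotency and ES cell marker lists extend farthest to the left and the neural and protocadherin lists farthest to the right.

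Metabolic genes changed at single steps. Slc2a1, the ubiquitous glucose transporter, was at 493 and 480.2 CPM in wild-type and 1051 and 1087 CPM in Tbxt delE6/+ libraries (log2 fold change 1.14, standard error 0.0499, edgeR adjusted p = 1.64e-08), while of 22 glycolysis genes 3 rose and 1 fell. The fatty acid desaturases Scd1 and Scd2 rose, Scd1 from 95.3 and 95.7 CPM to 229 and 232 CPM (log2 fold change 1.27, standard error 0.0535, edgeR adjusted p = 1.27e-08), and they were the only calls among 19 genes of fatty acid synthesis. No gene of the 23 in cholesterol synthesis was called (edgeR at an unadjusted p under 0.05 gave 9 higher and 6 lower, DESeq2 0, and leaving out Tbxt delE6/+ replicate 1 gave 1 higher). Amino acid transporters rose in 7 of 42 and fell in 1, with Slc38a3, a glutamine carrier, at 15.3 and 16.2 CPM in wild-type and 32.4 and 30.4 CPM in Tbxt delE6/+ libraries (log2 fold change 1.0, standard error 0.0884, edgeR adjusted p = 3.31e-06). These became 3 and 1 without Tbxt delE6/+ replicate 2, 3 and 1 without wild-type replicate 1, 5 and 0 without Tbxt delE6/+ replicate 1, and 7 and 0 without wild-type replicate 2.

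Large housekeeping complexes held fewer calls than the background. Of 80 cytosolic ribosomal protein genes 1 fell, Rpl39l (-0.82 on the log2 scale), a copy that is prominent in testis, and none rose (edgeR at an unadjusted p under 0.05 gave 0 higher and 39 lower, DESeq2 0 higher). The median of this list was -0.09. Mitochondrial ribosomal proteins had 1 call in 72, Mrps24 (-0.69), and nuclear genes for oxidative phosphorylation 1 higher and 1 lower in 73, of which the rise was lost by DESeq2 and without either wild-type library or Tbxt delE6/+ replicate 1. None of 35 proteasome genes was called (edgeR at an unadjusted p under 0.05 gave 3 higher and 12 lower, DESeq2 0). The Polycomb and trithorax list had 1 rise, Ezh1 (0.53), and 1 fall, Suz12 (-0.59), in 28. Without wild-type replicate 2 the change of Ezh1 was 0.49, under the threshold of 0.5. Apart from such complexes, the zinc finger genes Zfp600 to Zfp999 had 8 rises and 4 falls in 153. Their share of rises was near the background of 5.45%. The zinc finger counts became 3 and 6 without Tbxt delE6/+ replicate 2 and 4 and 4 without wild-type replicate 2.

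Mitochondrially encoded genes varied between replicates. Of 13, 4 fell, mt-Nd1 from 2329 and 2099 CPM to 1241 and 1573 CPM (log2 fold change -0.65, standard error 0.112, edgeR adjusted p = 0.000682), and the median was -0.42. The number of falls was 1 without Tbxt delE6/+ replicate 1, 7 without Tbxt delE6/+ replicate 2 and 2 without wild-type replicate 1, so it rested on single libraries, and without Tbxt delE6/+ replicate 1 1 member rose.

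Stress and cell cycle lists were mostly low in calls or showed falls. Of 22 cyclins and inhibitors of cyclin-dependent kinases, 3 fell and 1 rose, Ccnd2 (0.63 on the log2 scale). Of 24 p53 targets 5 fell and none rose (edgeR at an unadjusted p under 0.05 gave 3 higher, DESeq2 0, and leaving out Tbxt delE6/+ replicate 2 1), with Cdkn1a, the inhibitor p21 of cyclin-dependent kinases, at 239 and 246 CPM in wild-type and 157 and 163 CPM in Tbxt delE6/+ libraries (log2 fold change -0.60, standard error 0.0489, edgeR adjusted p = 1.76e-06) and Mdm2, which degrades p53, lower as well (log2 fold change -0.67, standard error 0.0524, edgeR adjusted p = 1.09e-06). Among heat shock and unfolded protein response genes 4 of 23 fell, Hspb1 from 219 and 242 CPM to 79.1 and 85.6 CPM (log2 fold change -1.49, standard error 0.0628, edgeR adjusted p = 1.27e-08), and Herpud1 rose (0.63 on the log2 scale). Interferon response genes fell in 3 of 19, Irf1 by 0.83, Oasl2 by 1.58 and Rsad2 by 1.38, with no rise (edgeR at an unadjusted p under 0.05 gave 1 higher, DESeq2 0). The Atf4 list had 1 call in 25, Atf3 (-0.52 on the log2 scale), which was lost without wild-type replicate 1.

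Imprinted genes, expressed from 1 parental allele, rose in 6 of 37 and fell in 1, Phlda2 (-0.51 on the log2 scale). The Phlda2 change was under the threshold of 0.5 in size by DESeq2's Wald test and with its size factors (-0.498 in both). It was also under it with TMM factors or a fit without chromosome 3 (-0.496 in both). Its change was -0.413 without wild-type replicate 2 and -0.472 without Tbxt delE6/+ replicate 1. H19, a noncoding RNA, was at 36.6 and 41.5 CPM in wild-type and 106 and 115 CPM in Tbxt delE6/+ libraries (log2 fold change 1.5, standard error 0.183, edgeR adjusted p = 4.72e-05). Mest was at 131 and 126 CPM in wild-type and 256 and 238 CPM in Tbxt delE6/+ libraries (log2 fold change 0.94, standard error 0.0572, edgeR adjusted p = 2.01e-07) and Peg3 at 149.8 and 139.6 CPM in wild-type and 240.4 and 232 CPM in Tbxt delE6/+ libraries (log2 fold change 0.71, standard error 0.0505, edgeR adjusted p = 5.55e-07). H19 is expressed from the maternal allele and Mest and Peg3 from the paternal allele, and Igf2, the paternal neighbour of H19, had a log2 fold change of -0.13 and was not called. Of 21 DNA methylation and demethylation genes 3 fell, Dnmt3l, Zfp57 and Gadd45b, and none rose (edgeR at an unadjusted p under 0.05 gave 7 higher, DESeq2 0, and leaving out wild-type replicate 1 or Tbxt delE6/+ replicate 2 1). Dnmt3l, the cofactor of the methyltransferases Dnmt3a and Dnmt3b, was at 256 and 289 CPM in wild-type and 159 and 165 CPM in Tbxt delE6/+ libraries (log2 fold change -0.75, standard error 0.119, edgeR adjusted p = 0.000372), and Dnmt3a (-0.06 on the log2 scale) and Dnmt3b (0.22) were not called. Germline genes silenced by methylation were mixed, 2 higher and 5 lower of 27, and 2 and 2 by DESeq2 and without wild-type replicate 1 or either Tbxt delE6/+ library, and 2 and 3 without wild-type replicate 2. Hox genes had 4 rises and 6 falls in 24, which fell to 0 and 0 without Tbxt delE6/+ replicate 1, to 1 and 3 without wild-type replicate 2 or Tbxt delE6/+ replicate 2, to 2 and 3 without wild-type replicate 1 and to 1 and 2 by DESeq2.

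A T-box motif was looked for in the promoters of the called genes, since Tbxt binds DNA through its T-box domain. The letters TCACACCT were searched on both strands of the RefSeq promoter sequences of GRCm38.p6, from 250 bases before to 50 after a gene's start, in which 590 of 883 genes that rose and 760 of 1110 that fell had at least 1 entry outside chromosome 3. The motif stood in 0.921% of the promoters of genes that rose, 1.14% of those of genes that fell, 0.782% of those of genes tested and not called, and 1.28% of all promoters in the table. The Rbpj letters TGGGAA stood in 23.3% of each of the 3 classes of tested genes. The Tcf/Lef letters CTTTGA stood in 12.2% of promoters of genes that rose, 10.0% of those of genes that fell and 11.7% of those of genes not called. A match is a description of the letters and not of binding. None of the promoters found for the 20 genes with the largest changes held the T-box letters.

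The matches are shown in their context. The windows with the T-box letters in capitals are given 5′ to 3′ on the strand of the gene for Cdkn1a and for the 3 largest rises and 3 largest falls averaging 2 CPM or more among called genes with a match, genes chosen after their values were seen. The windows lie at chr17:29093762-29093809, chrX:100730174-100730221, chrX:49795439-49795486, chr8:84148043-84148087, chr5:24392326-24392373, chr9:50494491-50494538 and chr1:134111147-134111194, in the order printed.
Cdkn1a: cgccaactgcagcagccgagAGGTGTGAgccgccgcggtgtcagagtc
Gdpd2: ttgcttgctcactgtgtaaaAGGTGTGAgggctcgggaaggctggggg
Igsf1: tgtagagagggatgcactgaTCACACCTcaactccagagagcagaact
4930432K21Rik: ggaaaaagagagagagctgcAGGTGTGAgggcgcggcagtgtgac
Atg9b: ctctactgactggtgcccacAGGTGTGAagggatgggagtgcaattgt
Plet1: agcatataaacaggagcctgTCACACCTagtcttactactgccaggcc
Chit1: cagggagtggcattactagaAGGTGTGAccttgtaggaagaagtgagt

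Among these genes Cdkn1a fell by 0.60 on the log2 scale. Gdpd2, a glycerophosphodiesterase, rose from 1.37 and 1.45 CPM to 3.14 and 2.98 CPM, Igsf1, an immunoglobulin superfamily membrane protein, from 6.39 and 7.11 CPM to 11.4 and 13.9 CPM, and 4930432K21Rik from 1.8 and 1.64 CPM to 2.65 and 3.19 CPM. Atg9b, an autophagy membrane protein, fell from 7.51 and 7.48 CPM to 3.14 and 3.68 CPM, Plet1, a surface protein of trophoblast and skin progenitors, from 5.27 and 5.92 CPM to 2.73 and 2.57 CPM, and Chit1, a chitinase, from 2.63 and 3.57 CPM to 1.29 and 2.0 CPM.

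To see which changes set Tbxt delE6/+ cells apart, they were also compared with the Tbxt delE6/delE6 and Tbxt Insert ASAY cells in the same fit. The 3 comparisons share the Tbxt delE6/+ libraries, so they are not independent of each other. Outside chromosome 3, 476 genes (2.94% of those tested) were higher than in each of the 3 other genotypes and 447 (2.76%) were lower, past the same thresholds. In the neural progenitor list 8 of 17 members met this rule in the higher direction, and in the protocadherin list 8 of 27. A low gene can pass the filter on low counts through Tbxt delE6/+ cells alone, so both shares can lean towards higher members. In the naive pluripotency list 3 of 24 met it in the lower direction, and in the laminin and integrin list 0 of 31. Levels of Dppa5a were 231 and 169.8 CPM in Tbxt delE6/delE6 and 288 and 252 CPM in Tbxt Insert ASAY libraries, near or above the 183 and 180.3 CPM of Tbxt delE6/+ libraries and below both wild-type libraries. Those of Sox1 were 7.33 and 6.2 CPM and 7.91 and 5.85 CPM, below both Tbxt delE6/+ libraries at 24.5 and 23.6 CPM. Ncam1, at 15.2 and 9.39 CPM and 9.8 and 8.71 CPM, was likewise lower there than in Tbxt delE6/+ cells. Among the largest rises against wild-type, Foxb1 and Cyp1a1 did not meet the rule. Foxb1 was at 5.47 and 4.35 CPM in Tbxt Insert ASAY and 6.63 and 5.39 CPM in Tbxt delE6/+ libraries (log2 difference 0.29, edgeR adjusted p = 0.28). Cyp1a1 was at 8.96 and 7.28 CPM against 9.96 and 8.05 CPM (0.15, edgeR adjusted p = 0.605).

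**Figure D5:**
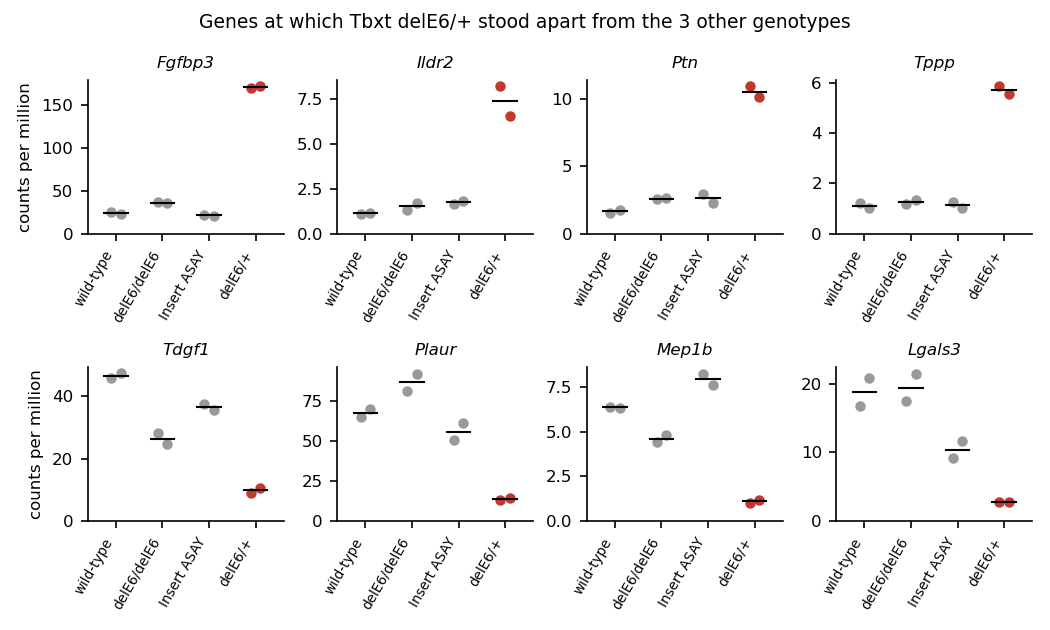
CPM (linear axis from 0) in the 2 libraries of each genotype, with bars at the means. Shown are the 4 largest rises (upper row) and the 4 largest falls (lower row) against wild-type outside chromosome 3. They were taken from genes averaging 2 CPM or more at which Tbxt delE6/+ differed from all 3 other genotypes. For each of the 8 genes both Tbxt delE6/+ libraries (red) lie outside the range of the 6 other libraries (grey).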

How the data were processed

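Poly(A) RNA of 2 wild-type and 2 Tbxt delE6/+ libraries was compared. The authors made directional libraries, used STAR 2.7.2a with the mm10 (GRCm38) genome, and deposited raw gene counts in 3 columns. The gene annotation behind the counts is not given in the sources used here. The column of reads antisense to read 1 was taken, since the other strand held 4.11% to 4.78% of stranded reads. STAR's summary lines were left out, among which unmapped reads made up 18% and 16.4% in Tbxt delE6/+ and 15.4% in wild-type replicate 2 (not analysed here for wild-type replicate 1). Genes were matched to GENCODE M21 (48058 of 48440). Counts were fitted in R 4.3.3 with edgeR 4.0.16 (filterByExpr with a minimum count of 10 and total of 15, TMM, quasi-likelihood, all 8 libraries, 1 coefficient per genotype, Benjamini-Hochberg adjustment), and log2 CPM used a prior count of 2. Thresholds are those of the study. The step was tested on simulated counts.

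Named genes are Tbxt, the 10 largest rises and falls outside chromosome 3 and the 4 on it among called genes averaging 2 CPM or more with no overlap between groups, up to 5 called members per list by adjusted p, and other members by their values. The members and the 51 lists were chosen with earlier results of these data known. Of the list members, 2 (Dux and Lgals6) did not match. A few members named by the rule are not reported here. Alternatives were DESeq2 1.42.0 (Wald test or size factors), TREAT, other filters, unstranded counts, only the 4 libraries, TMM factors or a fit without chromosome 3, the replicate block and leaving out each library.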

Additional observations from a re-analysis of the deposited data

Results flagged for a closer look

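The genes below were picked out because Tbxt delE6/+ cells differed by the edgeR test not only from wild-type but also from Tbxt delE6/delE6 and Tbxt Insert ASAY cells. They are the 4 largest rises and the 4 largest falls against wild-type outside chromosome 3 among such genes averaging 2 CPM or more. All comparisons share the Tbxt delE6/+ libraries. Below that level, Cdx2 also differed from all 3 other genotypes, with a larger rise against wild-type (3.06 on the log2 scale). Fgfbp3 had 37.1 and 35.4 CPM in Tbxt delE6/delE6 and 22 and 20.6 CPM in Tbxt Insert ASAY libraries against 170.4 and 172 CPM in Tbxt delE6/+ libraries, log2 differences of 2.24 and 3.0. The same differences were 2.28 and 2.08 for Ildr2, 2.02 and 2.01 for Ptn, and 2.19 and 2.31 for Tppp. Among the falls, Lgals3 had 17.4 and 21.5 CPM and 9.18 and 11.6 CPM against 2.76 and 2.74 CPM, log2 differences of -2.82 and -1.92. They were -2.06 and -2.85 for Mep1b, -2.67 and -2.03 for Plaur, and -1.44 and -1.91 for Tdgf1. A search for single libraries far from their group was not made, since each group has 2.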

How the results depend on the processing

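The counts of called genes kept within 1.5 times of those given in all alternatives tried except the TREAT test, which requires the change itself to exceed 0.5 and so is stricter by construction: it called 775 genes, 638 outside chromosome 3 and 137 on it, and 293 that set Tbxt delE6/+ apart from the 3 other genotypes. Outside chromosome 3, DESeq2's Wald test called 1490 genes, of which 1476 were among the 1993, and removing the genes of chromosome 3 before the fit left 1965, of which 1945 were shared. No alternative called any of the 1993 genes in the opposite direction. Leaving out each of the 4 libraries compared in turn gave 1729 to 1930 calls in all, 1449 to 1649 outside chromosome 3, 276 to 282 on it, and 687 to 774 genes set apart. The median log2 fold change of chromosome 3 lay between 0.31 and 0.33 except without the filter on low counts, where 27566 genes were tested, those with few reads included, and it was 0.14. Replicate numbers are not said to pair the libraries. The correlation of the replicate deviations of Tbxt delE6/+ and wild-type was 0.0768 over 12830 genes, and with only 2 pairs it cannot settle whether they do. With the replicate number as a block 2255 genes were called, 1953 outside chromosome 3 and 302 on it, 904 genes were set apart, and the median of chromosome 3 was 0.32. Of the 197 named genes past both thresholds, 121 passed them under every alternative, and none was reversed. Of 714 counts of list members under alternatives, 627 stayed within 1.5 times of the count given. Depth limits the genes near or under 1 CPM, whose standard errors were wide, at 0.541 on the log2 scale for Col3a1 and 0.48 for Slc1a2.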
